A study of Canis lupus familiaris with 6 samples.

Results

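Selenocysteine is the amino acid through which cells use most of their selenium, and its synthesis and insertion need a small set of dedicated proteins. The set described here holds 8 gene names, taken for their role in this pathway, and 7 of them name a row among the 31512 genes of the deposited blood table. The remaining name, SEPHS2, names no row and is treated below through an unnamed row. Whole blood was drawn from Beagle dogs of 1.5 years, and 3 control and 3 CPP-Se dogs, labelled as biological replicates, gave 1 library each. Beside the same maintenance food, the control dogs received 30 g of a snack that held no CPP-Se, while for the CPP-Se dogs the snack carried 0.03% of it. Blood was taken on day 30, and the dogs had been used to the snacks for 7 days before. CPP-Se is a chelate of selenium with phosphopeptides cut from milk casein, so the comparison asks whether added dietary selenium in this form went along with other levels of the genes that handle selenium. The labels name no group fed the peptides alone, so peptide and selenium cannot be told apart here. In whole blood, fewer cells of a type and less RNA per cell cannot be told apart either.

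Selenocysteine has no synthetase of its own and is built on its tRNA. Seryl-tRNA synthetase (SARS1) first loads serine, the kinase PSTK phosphorylates it, and the synthase SEPSECS replaces the phosphate with selenium. The selenium donor is selenophosphate, which SEPHS2 makes. SEPHS1 is its paralog and has no such activity in animals, and SCLY returns selenium to the pathway by splitting free selenocysteine. At the ribosome a UGA codon, otherwise a stop, is read as selenocysteine when SECISBP2 is bound to a hairpin in the messenger RNA and the elongation factor EEFSEC delivers the loaded tRNA. TRNAU1AP binds that tRNA and takes part in the same assembly.

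Levels are given as FPKM, fragment counts corrected for gene length and for library size, so levels of different genes can be set side by side. The scaling between libraries behind these FPKM is not given in the sources used here, and median-ratio factors computed from the FPKM were all between 0.992 and 1.01. The whole reads behind the FPKM were recovered, with a total over all genes of 6598173 to 8067034 per dog. CPP-Se replicate 2 stood apart from the other dogs. Its 8 hemoglobin genes held 36.6% of these reads against 48.7% to 55.9% in the other dogs, and the library size implied by its FPKM was 1.65 times its reads on genes against 0.882 to 1.05 times. Results that depend on this scaling are given below with other scalings. Of the values read here, the share of hemoglobin bears most directly on the label of whole blood, and markers of the white cells are given at the end.

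All 7 genes had at least 1 read in every dog, with mean levels between 0.228 FPKM for PSTK and 8.59 FPKM for SCLY. SCLY was the most abundant of them in 4 dogs, namely the 3 control dogs and CPP-Se replicate 1, and SECISBP2 was the most abundant in CPP-Se replicates 2 and 3. SEPHS1 was at rank 3 in 5 of the 6 dogs. The next neighbours changed places between dogs: EEFSEC ranked between 3 and 5, and TRNAU1AP and SEPSECS between 4 and 6. PSTK was last in every dog. Among all genes tested, the mean level of SCLY stood at the 64.1 percentile and that of SEPSECS at the 27.8 percentile. The summed FPKM of the 7 genes was 26.2 to 28.8 in the control dogs and 26.0 to 28.0 in the CPP-Se dogs, so the sums of the groups overlapped.

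Between the groups, 0 of the 6 members tested passed the threshold, an adjusted p under 0.05 with a fold change of at least 1.5 (limma on log2(FPKM + 1) with Benjamini-Hochberg adjustment over 9847 genes). Over all genes tested 0.0305% passed, 0 of them higher and 3 lower in the CPP-Se dogs. Other settings called genes in both directions, with 8 higher and 4 lower for a common sum of FPKM in each dog, 9 higher and 5 lower without CPP-Se replicate 2, and 52 higher and 104 lower for limma-voom with sample quality weights. Without adjustment, p was under 0.05 for SCLY alone, with the lower level in the CPP-Se dogs, and for 16.0% of all genes tested, of which 9.1% were lower and 6.87% higher as shares of all genes tested. For SCLY the unadjusted p was at least 0.05 under 13 of the 20 alternatives, among them each dog left out. The groups did not overlap for 4 of the 6 members, beside 23.0% of all genes tested. SCLY and TRNAU1AP were lower in every CPP-Se dog than in every control dog, where 12.6% of all genes tested were. SECISBP2 and EEFSEC were higher without overlap, where 10.4% of all genes tested were. SEPHS1 and SEPSECS overlapped. The median log2 fold change of the 6 was 0.15, beside -0.0043 over all genes tested. It was 0.057 without control replicate 2, 0.073 without CPP-Se replicate 1, and 0.28 for a common sum of FPKM, where the median of all genes tested was 0.13. The test by limma-voom on the recovered reads, with or without sample quality weights, also called 0 of the 6. It took the library sizes implied by the FPKM, so it keeps the deposited scaling.

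**Figure D1:**
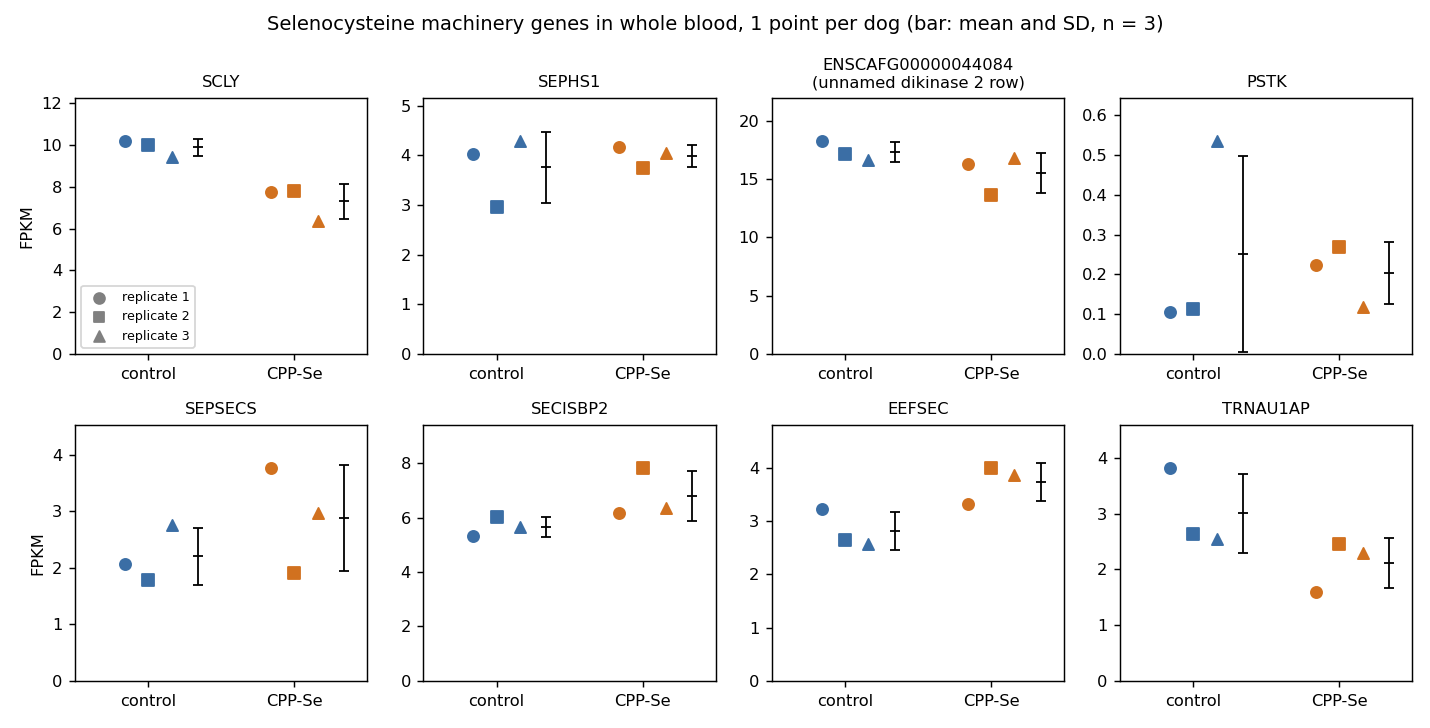
FPKM of 7 selenocysteine machinery genes and of the unnamed row described as the second selenophosphate synthetase, 1 panel per gene on its own axis from 0 and 1 point per dog. Points are blue for control and orange for CPP-Se dogs, with a shape per replicate number, bars give the mean and SD of 3 dogs, and the groups are apart for SCLY, SECISBP2, EEFSEC and TRNAU1AP and overlap for the other 4.

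SCLY, selenocysteine lyase (ENSCAFG00000012370, chromosome 25, 48574130 to 48632035 in the dog genome of Ensembl release 100), had 10.2, 10.0 and 9.44 FPKM in control replicates 1, 2 and 3. In CPP-Se replicates 1, 2 and 3 it had 7.75, 7.79 and 6.35 FPKM. Every control dog lay above every CPP-Se dog. The means were 9.88 ± 0.400 and 7.30 ± 0.822 FPKM (SD, n = 3 dogs per group here and below), a log2 fold change of -0.40 (standard error 0.17, 95% confidence interval -0.78 to -0.0065, adjusted p = 0.304 from limma). The unadjusted p was 0.0471 in the same limma fit, which placed SCLY 1523rd of the 9847 genes. An exact permutation test of 3 dogs against 3, two-sided, gave p = 0.1, the smallest it can give. Over the alternatives tried, its adjusted p from limma lay between 0.214 and 0.874. Its values rest on 126 to 337 reads per dog.

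SEPHS1, selenophosphate synthetase 1 (ENSCAFG00000004743, chromosome 2, 23146353 to 23177174), had 4.03, 2.95 and 4.30 FPKM in the control dogs and 4.17, 3.74 and 4.04 FPKM in the CPP-Se dogs. All CPP-Se dogs lay within the range of the control dogs. Its log2 fold change was 0.077 (standard error 0.19, 95% confidence interval -0.37 to 0.52, adjusted p = 0.882 from limma). Control replicate 2 was the lowest of the 6 dogs, and without it the log2 fold change was -0.051. With a common sum of FPKM it was 0.20.

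No row is named SEPHS2, but ENSCAFG00000044084 (chromosome 6, 17667717 to 17669463, minus strand) is described in the table as selenide, water dikinase 2, which is the protein of SEPHS2. The table classes this row as a lncRNA with a length of 585 bases. In the table it lies between ITGAL and DCTPP1, and in RefSeq's dog assembly UU_Cfam_GSD_1.0 SEPHS2 lies between the same neighbours as a protein-coding gene. SEPHS2 is itself a selenoprotein, with a UGA codon inside its reading frame. The row had 18.3, 17.1 and 16.6 FPKM in the control dogs and 16.3, 13.6 and 16.8 FPKM in the CPP-Se dogs. CPP-Se replicate 3 lay among the control dogs, so the groups overlapped. The log2 fold change was -0.15 (95% confidence interval -0.54 to 0.24, adjusted p = 0.701 from limma). It was -0.065 without CPP-Se replicate 2 and -0.0053 with a common sum of FPKM. In every dog its level was above those of all 7 named members, and SEPHS1 stood at 0.172 to 0.259 of it in the control dogs and at 0.241 to 0.275 in the CPP-Se dogs. The short length assigned to the row enters its FPKM, so this order rests on the annotation as deposited. A second unnamed row, ENSCAFG00000041789 on chromosome 1, is described as selenide, water dikinase 1 and was at 0 in all 6 dogs.

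PSTK, the kinase that phosphorylates the serine on the selenocysteine tRNA (ENSCAFG00000012641, chromosome 28, 32535161 to 32546741), was the member with the least RNA. Its recovered reads numbered 1, 1 and 6 for control replicates 1, 2 and 3, against 2, 5 and 1 for the CPP-Se replicates. Its mean of 2.67 reads per dog lay under the floor of 3 reads taken for a count of 0, with control replicate 3 and CPP-Se replicate 2 above that floor. It was also under the filter of 1 FPKM and was not among the genes tested. With a filter of 0.1 FPKM its log2 fold change was -0.040 (adjusted p = 0.949 from limma), on counts this low.

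SEPSECS, the synthase that completes selenocysteine on its tRNA (ENSCAFG00000016468, chromosome 3, 85069742 to 85102347), had 2.06, 1.79 and 2.75 FPKM in the control dogs and 3.77, 1.91 and 2.96 FPKM in the CPP-Se dogs. CPP-Se replicates 1 and 3 were above all control dogs and replicate 2 was not. The log2 fold change was 0.26 (standard error 0.25, 95% confidence interval -0.32 to 0.84, adjusted p = 0.652 from limma). It was 0.096 without CPP-Se replicate 1 and 0.45 without CPP-Se replicate 2. With 17 to 38 reads per dog, counting alone gives a coefficient of variation of 18.7%, beside 22.6% between the control dogs and 32.4% between the CPP-Se dogs.

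SECISBP2, which binds the hairpin that recodes UGA (ENSCAFG00000002188, chromosome 1, 96880369 to 96933862), had 5.31, 6.04 and 5.64 FPKM in the control dogs. In the CPP-Se dogs it had 6.18, 7.84 and 6.36 FPKM. The groups did not overlap, but the gap between control replicate 2 and CPP-Se replicate 1 was narrow. The means were 5.66 ± 0.364 and 6.79 ± 0.912 FPKM, a log2 fold change of 0.22 (standard error 0.17, 95% confidence interval -0.18 to 0.62, adjusted p = 0.578 from limma). Without CPP-Se replicate 2, its highest dog, the log2 fold change was 0.13, and with a common sum of FPKM in each dog it was 0.36. SECISBP2 had 175 to 505 reads per dog, with the highest mean of the 7, although SCLY had more reads in each control dog.

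EEFSEC, the elongation factor for selenocysteine (ENSCAFG00000004135, chromosome 20, 2155822 to 2405418), had 3.22, 2.65 and 2.56 FPKM in the control dogs. Its levels in the CPP-Se dogs were 3.32, 4.003 and 3.86 FPKM. All CPP-Se dogs were above all control dogs, with control replicate 1 and CPP-Se replicate 1 close together. The means were 2.81 ± 0.356 and 3.73 ± 0.358 FPKM. Its log2 fold change of 0.31 was the highest of the members tested (standard error 0.18, 95% confidence interval -0.11 to 0.74, adjusted p = 0.451 from limma).

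TRNAU1AP, a binder of the selenocysteine tRNA (ENSCAFG00000011735, chromosome 2, 71918864 to 71944104), had 3.83, 2.63 and 2.56 FPKM in the control dogs. It had 1.60, 2.45 and 2.29 FPKM in the CPP-Se dogs. The groups did not overlap, although control replicate 3 and CPP-Se replicate 2 nearly met. The means were 3.01 ± 0.714 and 2.11 ± 0.449 FPKM, a log2 fold change of -0.36 (standard error 0.23, 95% confidence interval -0.88 to 0.16, adjusted p = 0.485 from limma). Its 11 to 35 reads per dog give a counting coefficient of variation of 21.6%, about as large as the 23.8% and 21.2% seen between the dogs of the groups. Without control replicate 1, the highest dog, the log2 fold change was -0.22, and it was -0.67 with limma-voom and sample quality weights. A snoRNA row on the other strand lies inside TRNAU1AP and held 0 reads in all 6 dogs, and no other member overlaps another gene of the table.

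**Figure D2:**
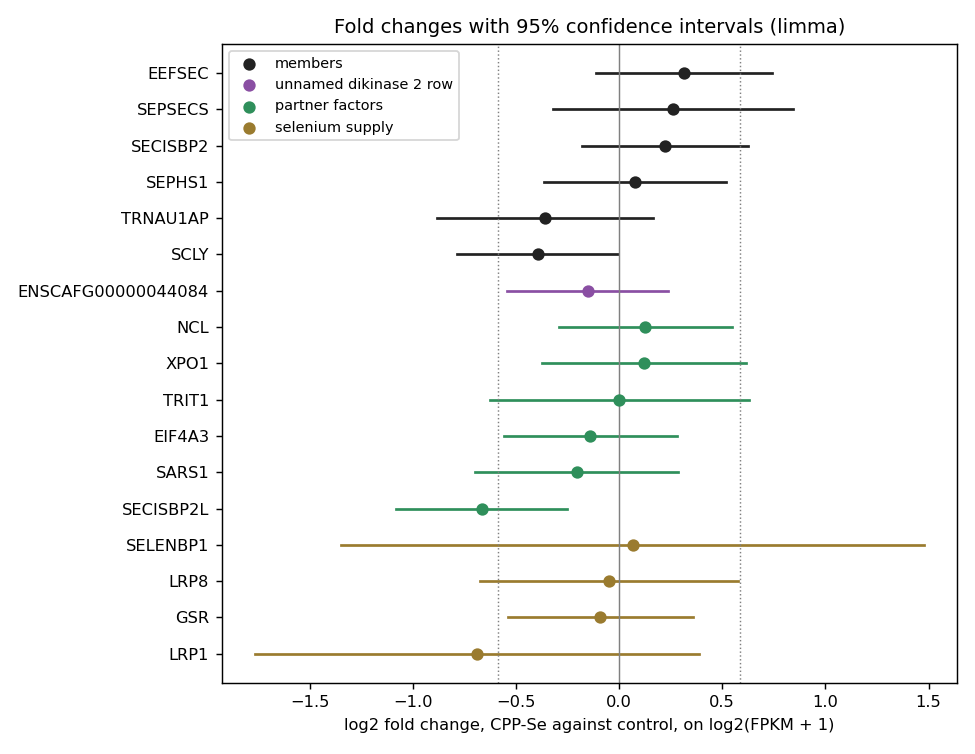
Log2 fold change on log2(FPKM + 1) (x axis, CPP-Se against control, point) with its 95% confidence interval (bar) for the 6 members tested, the unnamed row, 6 partner factors and 4 genes of selenium supply, with dotted lines at a fold change of 1.5 in either direction. The interval includes 0 for all but SCLY, which ends at -0.0065, and SECISBP2L at -1.08 to -0.25.

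The partners of these proteins were given by a list of 9 genes, of which 6 were found by symbol and tested. None of the 6 was called. SECISBP2L, the paralog of SECISBP2, had the lowest adjusted p of the genes of the pathway tested here, including the members (0.181 from limma). Its levels were 6.08, 7.36 and 6.05 FPKM in the control dogs and 3.58, 4.24 and 3.35 FPKM in the CPP-Se dogs, so all CPP-Se dogs lay below all control dogs. The means were 6.50 ± 0.749 and 3.72 ± 0.462 FPKM, a log2 fold change of -0.67 (standard error 0.18, unadjusted p = 0.00618 from limma). Over all alternatives tried, its log2 fold change lay between -0.79 and -0.52 and its adjusted p from limma between 0.0865 and 0.689. SARS1, which loads serine on the selenocysteine tRNA, had 11.9, 8.42 and 10.9 FPKM in the control dogs and 6.97, 9.83 and 9.92 FPKM in the CPP-Se dogs, with overlap. The others were EIF4A3, an RNA helicase that also binds the recoding hairpin, NCL (nucleolin), XPO1 (the nuclear exporter of SECISBP2) and TRIT1, which modifies the selenocysteine tRNA. All of these overlapped, with log2 fold changes from -0.14 for EIF4A3 to 0.13 for NCL. RPL30, ELAVL1 and ALKBH8 were not found by symbol.

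Ratios between genes within a dog do not depend on the scaling between dogs. The ratios given here were chosen after the values were seen. In 5 of them a gene that was higher without overlap is set over a gene that was lower without overlap, so that these ratios had to be apart between the groups, and they are given as a description of levels with no test. SECISBP2 stood at 0.873, 0.820 and 0.933 times the level of its paralog SECISBP2L in the control dogs. In the CPP-Se dogs it stood at 1.72, 1.85 and 1.90 times that level. SECISBP2L was thus the more abundant paralog in all control dogs and SECISBP2 in all CPP-Se dogs, a 2.09-fold difference in the ratio (log2 means -0.19 ± 0.0931 and 0.87 ± 0.0726, SD, n = 3).

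Relative to SCLY, SECISBP2 stood at 0.520, 0.603 and 0.598 for control replicates 1, 2 and 3, against 0.797, 1.01 and 1.00 for CPP-Se replicates 1, 2 and 3. EEFSEC stood relative to SCLY at 0.315, 0.265 and 0.272 for the control replicates, against 0.429, 0.514 and 0.609 for the CPP-Se replicates. In both ratios the CPP-Se dogs were above all control dogs, by 1.62-fold and 1.81-fold on average. Relative to TRNAU1AP, EEFSEC stood at 0.840, 1.01 and 1.00 for the control replicates, against 2.07, 1.63 and 1.69 for the CPP-Se replicates, 1.89-fold higher. SECISBP2 stood relative to TRNAU1AP at 1.39, 2.29 and 2.21 for the control replicates, against 3.85, 3.20 and 2.78 for the CPP-Se replicates, 1.70-fold higher. The ratios of SEPSECS to SARS1, of SEPHS1 to the unnamed row, and of EEFSEC to EEF1A1, its counterpart for the other amino acids, overlapped between the groups.

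**Figure D3:**
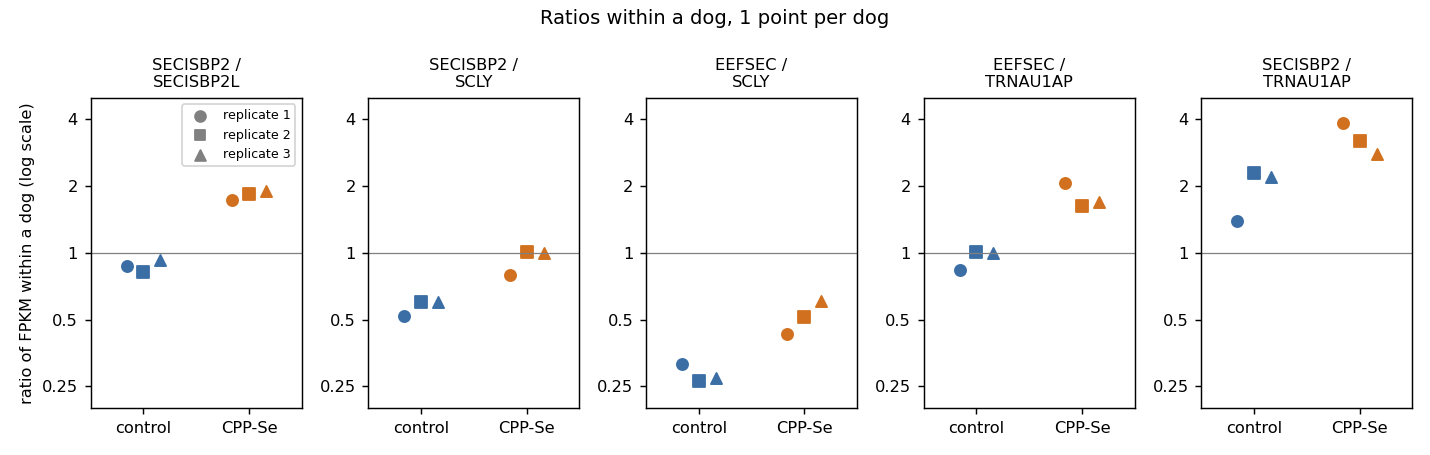
Ratios of FPKM within a dog (y axis, log scale) for the 5 pairs that set a gene higher without overlap over one lower without overlap, 1 point per dog, control dogs in blue and CPP-Se dogs in orange. The ratio of SECISBP2 to SECISBP2L lies at 0.820 to 0.933 in the control dogs and 1.72 to 1.90 in the CPP-Se dogs, on either side of 1.

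The count of members without overlap depended on the scaling between dogs. It was 4 of 6 in the deposited FPKM and with median-ratio scaling, which hardly moves them, where 23.0% of all genes tested were without overlap in either case. It was 1 with upper quartile scaling (SCLY), beside 19.4% of all genes, and 0 with a common sum of FPKM, beside 13.8%. With a common sum of FPKM without the hemoglobin genes it was 2 (SECISBP2 and EEFSEC), beside 18.3%. The genes lower without overlap made up 12.6% of all genes tested in the deposited FPKM and 3.15% with a common sum of FPKM, while those higher made up 10.4% and 10.6%. These last scalings moved the median log2 fold change of all genes tested from -0.0043 to 0.13 and to 0.12. SECISBP2L was lower without overlap under each scaling except the common sum of FPKM. SCLY and TRNAU1AP remained negative and EEFSEC, SECISBP2 and SEPSECS remained positive in all 20 alternatives. Log2 fold changes lay between -0.44 and -0.25 for SCLY and between 0.27 and 0.47 for EEFSEC. Among the alternatives, the lower filters, the other moderations and the replicate block leave a fold change as it is, so no direction could change there.

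**Figure D4:**
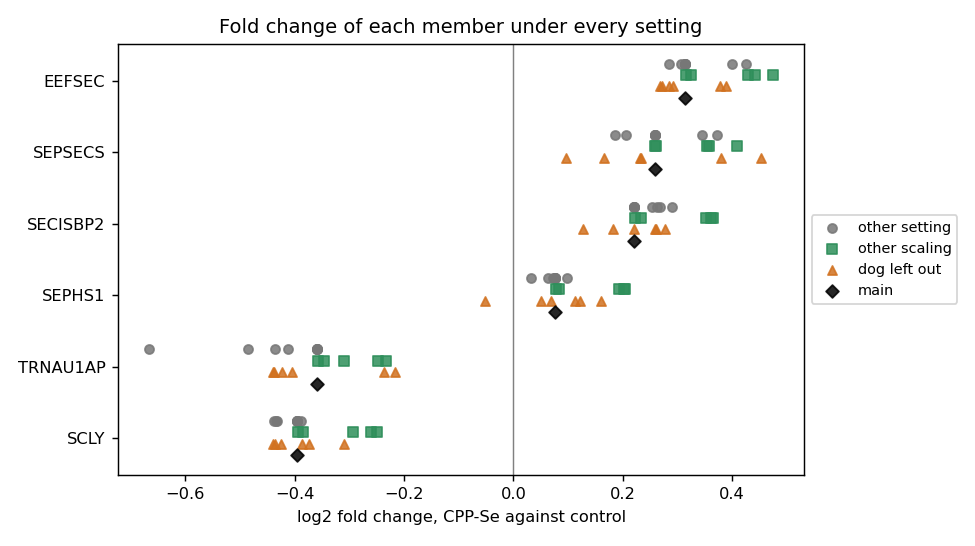
Log2 fold change, CPP-Se against control (x axis), of the 6 members tested under each setting, as reported (diamond), with another scaling between dogs (square), with 1 dog left out (triangle) or with another pseudocount, filter, moderation, weighting or test (circle). Only SEPHS1 has a value on the other side of 0, at -0.051.

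Selenium reaches cells through selenoprotein P and its receptors, and is freed by reduction and by the splitting of selenium amino acids. Of 8 genes of this supply, 6 were found by symbol and 4 tested, and 0 were called or without overlap. LRP8, the receptor of selenoprotein P, was at 0.656 to 1.44 FPKM in the control dogs and 0.796 to 1.22 FPKM in the CPP-Se dogs, and LRP2, its kidney receptor, was listed at 0 in all dogs. The related receptor LRP1 had 17.1 to 26.5 FPKM in the control dogs and 19.6, 18.6 and 4.99 FPKM in the CPP-Se dogs. SELENBP1, a selenium-binding protein, had 4.55 to 6.28 FPKM in the control dogs and 2.90, 2.66 and 19.4 FPKM in the CPP-Se dogs, so CPP-Se replicate 3 stood apart from the other CPP-Se dogs in both genes. GSR, glutathione reductase, had 6.81 to 9.09 FPKM in the control dogs and 6.14 to 8.39 FPKM in the CPP-Se dogs. CTH, a lyase that also acts on selenium amino acids, lay under the filter, with a mean of 9.67 reads per dog. CBS and TXN were not found by symbol.

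The products of the machinery are the selenoproteins. Of 24 selenoprotein genes besides SEPHS2, 19 were found by symbol and 12 tested, and 0 were called. For 3 of them the unadjusted p was under 0.05. SELENOO, a mitochondrial selenoprotein, had 9.12 to 13.1 FPKM in the control dogs and 14.5 to 31.6 FPKM in the CPP-Se dogs (log2 fold change 0.90, adjusted p = 0.213 from limma). TXNRD1, cytosolic thioredoxin reductase, had 18.0 to 23.7 and 12.6 to 14.2 FPKM (log2 fold change -0.58, adjusted p = 0.202 from limma). SELENOS, a selenoprotein of the endoplasmic reticulum, had 16.8 to 20.9 and 10.5 to 15.3 FPKM (log2 fold change -0.56, adjusted p = 0.249 from limma). The median of the 12 was 0.040. The lowest log2 fold change, -1.49, was that of SELENOP, the selenium carrier of plasma, with 15.2, 21.7 and 51.0 FPKM in the control dogs and 4.23, 26.9 and 4.95 FPKM in the CPP-Se dogs, which overlapped (adjusted p = 0.341 from limma). GPX1, a glutathione peroxidase, had a mean over the 6 dogs of 3989 FPKM and overlapped between the groups, far above every member of the machinery. SELENOP and GPX1 are named here after their values were seen.

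Other protein synthesis genes were read in the same fit. All 20 cytosolic aminoacyl-tRNA synthetases were tested and had a median log2 fold change of -0.054. The only synthetase with an unadjusted p under 0.05 was YARS1, the tyrosyl-tRNA synthetase, with 5.25 to 6.52 FPKM in the control dogs and 7.87 to 8.62 FPKM in the CPP-Se dogs (adjusted p = 0.288 from limma). Of 7 elongation and release factors tested, TUFM, the mitochondrial elongation factor Tu, was the only one with an unadjusted p under 0.05, with 10.2 to 10.3 and 12.9 to 17.6 FPKM (adjusted p = 0.253 from limma). The median log2 fold change of these 7 was 0.22. EEF2, the translocation factor of the ribosome, named after its values were seen, was lower without overlap, with 439 to 484 FPKM in the control dogs and 301 to 434 FPKM in the CPP-Se dogs (log2 fold change -0.37, adjusted p = 0.461 from limma). The 8 factors of nonsense-mediated decay, the pathway that can degrade messenger RNAs whose UGA is read as a stop, all overlapped between the groups, with a median of 0.024. In these lists 0 genes were called. ZNF143, named after its description and values were seen, is described in the table as an activator of the selenocysteine tRNA gene and had 1.40 to 2.61 FPKM in the control dogs and 1.33 to 2.18 FPKM in the CPP-Se dogs. The selenocysteine tRNA itself is not polyadenylated and was not analysed here.

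Markers of blood cell types were read in the same dogs, and 0 of them passed the threshold. Over all genes tested, 12.6% were lower and 10.4% higher without overlap. All 7 monocyte markers found were lower in the CPP-Se group without overlap, with unadjusted p under 0.05 for each and a median log2 fold change of -0.89, and their summed level was 595 to 819 FPKM in the control dogs and 264 to 355 FPKM in the CPP-Se dogs. With a common sum of FPKM, 2 of the 7 monocyte markers had an unadjusted p under 0.05. Over all 9847 genes tested, 920 had such a p with that scaling, against 1572 in the deposited FPKM. Of 7 neutrophil markers, 3 were lower without overlap and the other 4 overlapped (summed level of the 7 at 2240 to 2997 against 1736 to 2227 FPKM). Among those that overlapped, S100A8 had a log2 fold change of -0.18, and MMP9 had one of 1.35, with 68.3 to 96.3 FPKM in the control dogs and 729, 23.7 and 540.0 FPKM in the CPP-Se dogs. T cell markers were higher without overlap in 6 of 10 (105 to 187 against 220 to 292 FPKM), B cell markers in 4 of 8 (279 to 398 against 413 to 463 FPKM), NK and cytotoxic markers in 3 of the 6 tested (30.3 to 45.4 against 58.6 to 91.4 FPKM, over the 8 found) and red cell markers in 2 of 10 (1402 to 3611 against 2337 to 3483 FPKM). The 5 platelet and 4 eosinophil markers overlapped between the groups, at 822 to 1729 against 576 to 2070 FPKM and 9.08 to 13.8 against 7.84 to 204 FPKM. The high eosinophil sums came from ALOX15, with 129, 4.05 and 198 FPKM in the CPP-Se dogs (log2 fold change 3.18). The log2 fold change was -0.70 for IL5RA and 0.48 for CCR3, and EPX was not tested. None of the markers found was listed at 0 in every dog. In the deposited scaling, summed monocyte markers were thus lower in every CPP-Se dog, and summed T cell, B cell and NK markers higher. The neutrophil sums were lower too but nearly met, at 2240 FPKM for the lowest control dog and 2227 for the highest CPP-Se dog. CD79A, which overlapped, held much of the B cell sum (means 289 and 346 FPKM), and LYZ much of the monocyte sum (533 and 211 FPKM). Sums under other scalings are not given. In the same 3 dogs SCLY, TRNAU1AP and SECISBP2L were lower and SECISBP2 and EEFSEC higher, a match that the split into groups fixes. The part of cell makeup in these values was not tested.

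**Figure D5:**
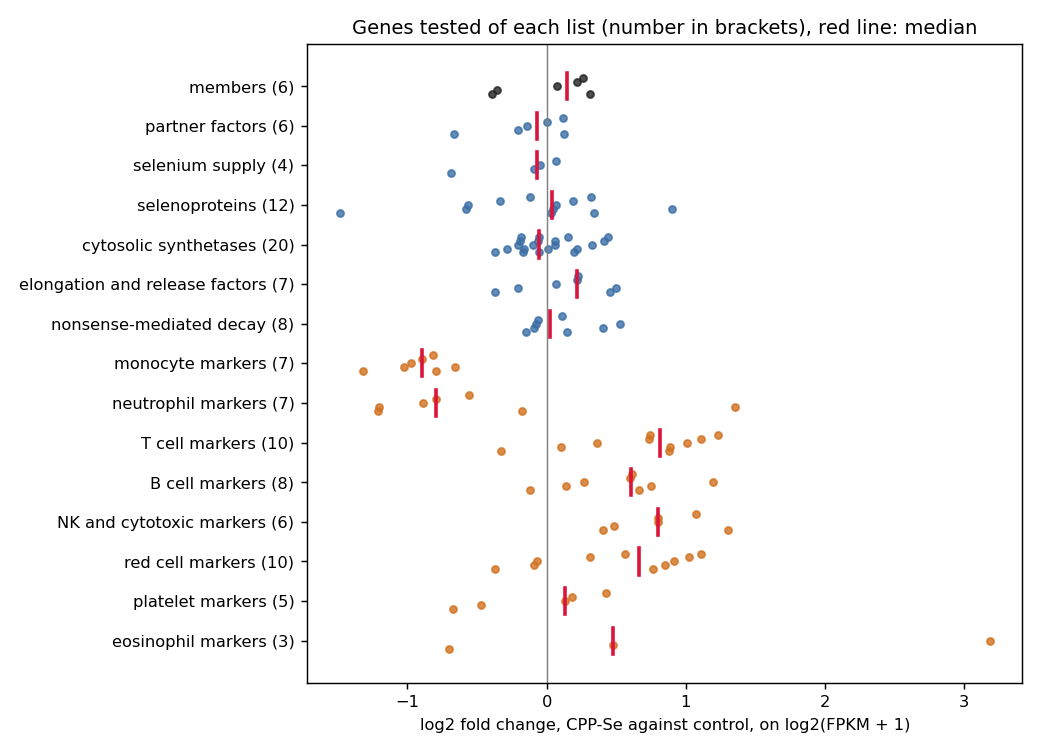
Log2 fold change on log2(FPKM + 1) (x axis, CPP-Se against control) of each gene tested in 15 lists (pathway lists in blue, blood cell markers in orange), with the number of genes in brackets and the list's median as a red line. The members (black) lie between -0.40 and 0.31, and the monocyte markers have a median of -0.89 and the T cell markers of 0.81.

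Over the 6 dogs, the named gene whose log2(FPKM + 1) was most like that of SCLY was VCAN, a matrix proteoglycan made by monocytes among other cells (Pearson r = 0.997), followed by P2RY13, a receptor for ADP (r = 0.996). VCAN had 25.9, 21.9 and 17.0 FPKM in the control dogs and 8.83, 9.53 and 4.09 FPKM in the CPP-Se dogs, the same order of dogs as SCLY. P2RY13 had this order too. Each other member also shared its order of dogs with a gene named below (AUP1, COQ4, GRK5, HCFC1R1 and ATP8A1). Most like SEPSECS were AUP1 (r = 0.991) and PPM1G (r = 0.989), and most like SEPHS1 were AATF and COQ4 (r = 0.985 for both). Most like SECISBP2 were GRK5 and SLCO4A1 (r = 0.978 for both), most like EEFSEC were HCFC1R1 (r = 0.980) and PLPP7 (r = 0.974), and most like TRNAU1AP were ATP8A1 (r = 0.992) and CELF2 (r = 0.989). These are the highest of all correlations tried, over 6 points that share their libraries and the split between the groups. With SCLY, 258 named genes had r above 0.9, and with each other member 40 to 78 did. Among the members themselves, r ran from -0.76 for SCLY with EEFSEC to 0.69 for SEPSECS with SEPHS1, so the members did not move as 1 block.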

How the data were processed

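Whole blood RNA on day 30 was compared in 3 control and 3 CPP-Se dogs. The authors made poly-A libraries, aligned reads with HISAT2 2.0.5 to the Ensembl release 100 dog genome, and assembled them with StringTie 1.3.3b. The submitters' processing notes also list featureCounts 1.5.0-p3. The authors deposited FPKM per gene and dog, computed from gene length and mapped reads. The library scaling in the FPKM, the use of strand and the handling of shared reads are not given in the sources used here.

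Reads were recovered by dividing FPKM times length by each dog's smallest step, and 100% of values came out whole (tolerance 0.05 reads). A mean over the dogs of 1 FPKM or more was required, and genes were tested on log2(FPKM + 1), two-sided, in limma 3.58.1 under R 4.3.3 (lmFit, eBayes with an intensity trend, Benjamini-Hochberg adjustment). The pseudocount understates changes of low genes. Threshold: adjusted p under 0.05 and fold of at least 1.5. Tests were tried on simulated data. The floor was 3 reads, which, as for intervals of counts, covers counting error only, since PCR reads carry no molecular identifiers.

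Replicate numbers came from the library names. Members and lists were chosen with earlier results of these data known. Named were the members, the partner and supply lists, genes of the other pathway lists with an unadjusted p under 0.05, paralogs, and the genes most like each member. Alternatives were another pseudocount, filters, scalings, moderation, weights, limma-voom, replicate blocks and each dog left out. Scaling to the reads outside hemoglobin, and the other gene lists under scalings besides median-ratio, were added after seeing the data. Protein and promoter sequences were not used here.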

Additional observations from a re-analysis of the deposited data

How the results depend on the processing

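Of the 6 members tested, 0 were called under each of the 20 alternatives (limma), and 5 of 6 kept their direction in all of them. The exception was SEPHS1, at -0.051 without control replicate 2 and up to 0.16 with the other dogs left out. The lower filters, the other moderations and the replicate block leave each member's fold change as it is, so they bear on the calls only. The number of genes called was 3 of 9847 as reported. It was 0 with a pseudocount of 0.1 (unadjusted p under 0.05 for 1537 genes), 0 of 16615 without a filter (1857 genes), 12 with a common sum of FPKM, 1 with limma-voom and 156 once its libraries were given quality weights, and 0 to 14 with each dog left out (14 without CPP-Se replicate 2). The median log2 fold change of the members, 0.15 as reported, was 0.077 with either lower filter, which added PSTK, 0.28 with a common sum of FPKM, 0.27 with that sum without hemoglobin, 0.28 with scaling to the reads outside hemoglobin (added after seeing the data), and 0.057 to 0.19 with each dog left out. The number of members without overlap was 4 as reported, beside 23.0% of all genes tested. It was 1 with upper quartile scaling (19.4% of all genes) and 0 with a common sum of FPKM (13.8%). It was 2 with that sum without hemoglobin (18.3%) and 2 with scaling to the reads outside hemoglobin (19.8%). With each dog left out it was 4 to 5. Fewer dogs separate more readily, and no share of all genes was read there, so that count cannot be set against the 4. In the other gene lists 0 genes were called with each of 4 scalings. Median-ratio scaling, with factors of 0.992 to 1.01, could hardly move them. Added after seeing the data, a common sum of FPKM left an unadjusted p under 0.05 for 2 of 7 monocyte markers (7 as reported), 1 of 12 selenoproteins (3), and 0 partners, synthetases and elongation factors (1 in each), but for 5 of 10 red cell (3), 7 of 10 T cell (6) and 4 of 6 NK markers (3), with 3 of 8 B cell (4) and the other lists at their reported counts. Over all genes tested, such a p was found for 920 of 9847 with this scaling, against 1572 as reported. Leaving hemoglobin out of the sum gave 1273 genes over all. Of the lists it gave 4 of 7 monocyte and 2 of 7 neutrophil markers (4 as reported), 1 of 12 selenoproteins and 0 partners. It also gave 7 of 10 T cell, 4 of 6 NK and 4 of 10 red cell markers and 1 of 8 decay factors (0 as reported). The remaining lists were at their reported counts. With the replicate number as a block, 1 gene was called over all genes and 0 members. The numbers do not pair the dogs: same-numbered dogs had correlations of their deviations of 0.0165, -0.0900 and -0.0433. Apart from the added gene and the fewer dogs, which the settings themselves bring, the cause of these moves was not tested. Depth limits PSTK, TRNAU1AP and SEPSECS most.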
